A study of Mus musculus with 11 samples.

Results

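The genes described here are 10 immediate early genes of the mouse liver: Fos, Fosb, Jun, Junb and Jund of the AP-1 family, Egr1, Atf3, Ier2, Ier3 and Zfp36. They were found by symbol in the deposited expression table, and all 10 were among the 12733 genes, of 36788 rows in all, that averaged 0.5 CPM or more over the livers. CPM is the share of counted reads that fell on a gene, scaled so that each library sums to 1000000. The study asked whether FSH, the follicle-stimulating hormone of the pituitary, acts on hepatic lipid metabolism without the ovaries. RNA-seq was made from the livers of wild-type C57BL/6 females over 12 weeks of age, every one of them ovariectomized (OVX) and fed a high-fat diet (HFD). The strain is that of the labels, whereas the study's methods describe its mice as of a mixed genetic background. Of these, 5 mice received FSH by daily injection (FSH 1, 2, 3, 4 and 6) and 6 received saline (saline 1 to 6). Both groups carried the defining hepatocyte markers, whose 7 genes summed to between 94584 and 114238 CPM in the FSH livers and between 87348 and 116805 CPM in the saline livers. The labels state that whole liver was digested with papain before RNA extraction, while the study's methods describe only a column purification of RNA from liver tissue, so whether these livers were digested is unsettled. The time of day at collection is not given in the sources used here.

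Immediate early genes are transcribed within minutes of a stimulus, without new protein synthesis, when MAP kinases, SRF with its ternary complex partners, and CREB act on their promoters. Their products include the leucine zipper proteins FOS and JUN, which pair to form AP-1, and the zinc finger factor EGR1. The transcripts are short-lived, and many carry AU-rich elements in their 3' ends that ZFP36 (tristetraprolin) binds to bring about their decay. In liver the family is known for its response to partial hepatectomy and to stress.

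The promoters of 5 of these genes are shown to set the motifs before genes that were lower with FSH (Fos, Jun and Junb) beside those before the gene that was higher (Ier3), with Fosb as the paralogue of Fos. Each run is the 120 bases before the transcript in the direction of the gene, cut where an exon of GENCODE M21 begins, from RefSeq windows on GRCm38.p6. Egr1 and Ier2 had no such window in the reference used, so they could not be shown. Jund, Atf3 and Zfp36 were left out because their RefSeq start lay 1210, 34706 and 1025 bases from the GENCODE start. The regions are chr12:85473770-85473889 (plus strand) for Fos, chr7:19310052-19310171 (minus strand) for Fosb, chr4:95052223-95052342 (minus strand) for Jun, chr8:84978719-84978838 (minus strand) for Junb and chr17:35821564-35821683 (plus strand) for Ier3. Capitals mark the motifs searched for, on both strands.
Fos: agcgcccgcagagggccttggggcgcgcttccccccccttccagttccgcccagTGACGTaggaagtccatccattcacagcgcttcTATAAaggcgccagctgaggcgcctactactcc
Fosb: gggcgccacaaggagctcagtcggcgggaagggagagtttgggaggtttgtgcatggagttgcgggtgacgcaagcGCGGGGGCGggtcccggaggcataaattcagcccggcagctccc
Jun: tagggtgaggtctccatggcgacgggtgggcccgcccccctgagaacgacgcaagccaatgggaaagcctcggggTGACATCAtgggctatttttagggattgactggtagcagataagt
Junb: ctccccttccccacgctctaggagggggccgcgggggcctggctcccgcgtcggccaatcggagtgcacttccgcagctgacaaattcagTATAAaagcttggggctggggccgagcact
Ier3: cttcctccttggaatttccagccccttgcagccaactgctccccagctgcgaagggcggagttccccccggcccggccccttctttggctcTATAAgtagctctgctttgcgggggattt

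In Fos the capitals are a core of the cyclic AMP response element (TGACGT) and a TATA box (TATAA). The core was present in 7.51% of the 32851 RefSeq windows of 300 bases, and the TATA box in 24.9%. In Fosb they are an EGR site (GCGNGGGCG, in 5.55% of windows). In Jun they are the AP-1-like site TGACATCA (3.62% of windows). In Junb and Ier3 they are a TATA box, so this motif stands before genes that were lower and before the gene that was higher with FSH. The AP-1 site TGANTCA (7.81% of windows) and the CArG box, to which SRF binds (1.63% of windows), had no match in these 5 runs. The windows reach 250 bases upstream of the RefSeq start, so sites farther away were not searched for. Among members not shown, the window of Zfp36 held a CArG box and an EGR site. That of Atf3 held a core of the cyclic AMP response element. None of these lay wholly upstream of annotated exons. None of the motifs overlapped another within the runs. A match is a description of letters only.

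In the FOS family, Fos was lower in FSH livers and Fosb did not pass the test. Fos, the AP-1 subunit that must pair with a JUN protein, stood at 1.76, 3.10, 3.40, 3.10 and 2.98 CPM in FSH livers 1, 2, 3, 4 and 6. In the saline livers it ran from 3.55 to 85.0 CPM with a median of 23.3. Every FSH liver lay below every saline liver, although saline 6, at 3.55 CPM, was only just above FSH 3. The log2 fold change (FSH against saline, on log2(CPM + 0.5)) was −2.63 with an SE of 0.60 and a 95% interval of −3.93 to −1.34 (limma, adjusted p = 0.0121; exact permutation p = 0.00433, two-sided, over all splits of the livers, with 0.00216 the smallest possible). With voom on the recovered reads the fold change was −2.80 and the adjusted p 0.0639, and with edgeR they were −3.55 and 0.00456. Group means were 2.87 ± 0.64 CPM (SD, n = 5) and 32.8 ± 31.6 CPM (SD, n = 6). Fosb, the paralogue that stays low in resting tissue, was near the detection limit, with 2 to 11 reads in FSH livers and 6 to 29 in saline livers. Its CPM values were 0.402, 0.811, 0.227, 0.129 and 0.175 in FSH livers 1, 2, 3, 4 and 6 and ran from 0.373 to 2.21 in saline livers, with a median of 1.06. The groups overlapped, and the log2 fold change of −0.89 (SE 0.28) did not pass the test in limma (adjusted p = 0.0558). With edgeR its log2 fold change was −1.69 (adjusted p = 0.047) and with voom −1.62 (adjusted p = 0.066). The FSH mean of Fosb, 0.349 CPM, was under the filter of 0.5 CPM, so it was tested only because of its level in saline livers (1.12 CPM).

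**Figure D1:**
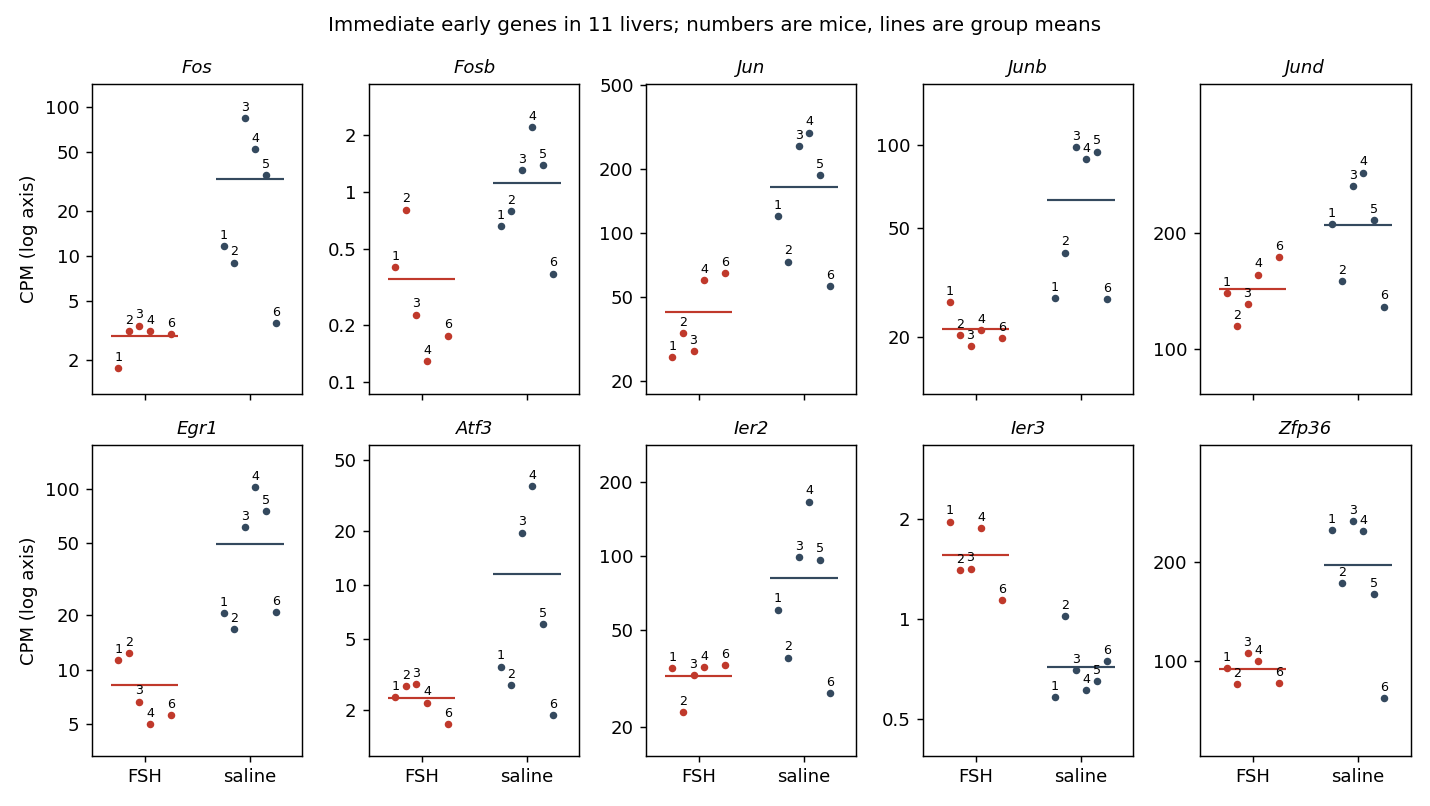
CPM of the 10 genes in each liver, on a log axis of its own in each panel. Points are livers (FSH red, saline dark) numbered by mouse, and horizontal lines are group means. For Fos the FSH livers sit between 1.76 and 3.40 CPM, below all saline livers, and Ier3 is the gene with FSH livers above all saline livers.

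In the JUN family, Jun and Junb were lower in FSH livers and Jund did not pass the test. Differences between the 3 genes were not tested. Jun, a partner of FOS and a strong activator, was at 26.0, 33.8, 27.6, 59.7 and 64.3 CPM in FSH livers 1, 2, 3, 4 and 6. In the saline livers it ran from 56.3 to 297 CPM with a median of 153. Only saline 6 fell within the FSH range. The log2 fold change was −1.80 (SE 0.40, limma adjusted p = 0.00966). Junb, which is known as a weaker activator and a counterpart of JUN, was at 26.7, 20.3, 18.6, 21.1 and 19.8 CPM in FSH livers and from 27.5 to 98.1 CPM, with a median of 64.7, in saline livers. The groups did not overlap, by less than 1 CPM, but did overlap under TMM or median-ratio scaling, and the log2 fold change was −1.34 (SE 0.32, limma adjusted p = 0.0162; exact permutation p = 0.00866). Jund, the family member that is expressed steadily in most tissues, was at 140, 115, 131, 156 and 173 CPM in FSH livers and from 129 to 287 CPM, with a median of 213, in saline livers. Saline 2 and saline 6 lay within the FSH range. Its log2 fold change of −0.51 (SE 0.19, interval −0.90 to −0.11) missed the test (limma adjusted p = 0.0977). Per kilobase of exon, Jund was the most abundant of the 10 genes in both groups, at 85.6 ± 13.6 CPM per kb (SD, n = 5) in FSH livers and 125 ± 37 CPM per kb (SD, n = 6) in saline livers. In saline livers Zfp36 (56.4 ± 21.1), Ier2 (53.5 ± 33.4) and Jun (51.7 ± 31.0 CPM per kb) came next, followed by Junb (27.3 ± 14.9), Fos (13.9 ± 13.4), Egr1 (11.01 ± 7.92) and Atf3 (5.35 ± 6.24 CPM per kb), and then by Ier3 (0.634 ± 0.141) and Fosb (0.180 ± 0.105 CPM per kb). From Zfp36 down to Ier3, no neighbours in this order differed by more than the larger of their SDs.

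Reads at some of these loci may be shared with a gene on the other strand, since the use of strand in counting is not given in the sources used here. Junb overlaps Prdx2, which stood at 184 ± 22.6 CPM in FSH livers (SD, n = 5) and 168 ± 19.1 CPM in saline livers (SD, n = 6). Jund overlaps Gm11175, at 9.20 ± 4.79 and 17.2 ± 7.21 CPM in the same groups. Jun overlaps Junos, whose highest value in any liver was 0.793 CPM.

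Egr1, the zinc finger factor that answers growth factor and MAP kinase signals, was at 11.3, 12.3, 6.68, 5.04 and 5.61 CPM in FSH livers 1, 2, 3, 4 and 6. In the saline livers it ran from 16.7 to 102 CPM with a median of 40.9. The groups did not overlap. The log2 fold change was −2.26 (SE 0.44, limma adjusted p = 0.0041; exact permutation p = 0.00433). The study named Egr1 from these same livers, so its direction is not independent evidence. Atf3, a stress-inducible factor of the ATF family that can pair with JUN, was at 2.36, 2.73, 2.78, 2.20 and 1.67 CPM in FSH livers and from 1.87 to 35.5 CPM, with a median of 4.75, in saline livers. The groups overlapped at saline 2 and saline 6. Its log2 fold change of −1.36 (SE 0.56, interval −2.57 to −0.16) did not pass the test (limma adjusted p = 0.142). It was −2.32 with edgeR (adjusted p = 0.0436), and −0.90 in limma without saline 4 (adjusted p = 0.221).

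Ier2, a small nuclear early response protein, was at 34.96, 23.0, 32.6, 35.3 and 35.8 CPM in FSH livers 1, 2, 3, 4 and 6. In saline livers it ran from 27.6 to 166 CPM with a median of 78.5. Saline 6 alone lay within the FSH range, and the log2 fold change of −1.09 (SE 0.35) did not pass (limma adjusted p = 0.0625). Zfp36, the AU-rich element binding protein, was at 94.6, 84.5, 106, 99.7 and 85.4 CPM in FSH livers and from 76.9 to 267 CPM, with a median of 210, in saline livers. Saline 6 was below every FSH liver. The log2 fold change was −0.95 (SE 0.25, limma adjusted p = 0.026), past the p threshold and short of the fold threshold. The adjusted p rose to between 0.0532 and 0.0585 in limma when FSH 1, FSH 2, saline 1, saline 3 or saline 4 was left out, and to 0.054 without the filter on low values.

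Ier3, an early response gene known as a regulator of cell survival, was the one member that was higher with FSH. It was at 1.96, 1.40, 1.42, 1.87 and 1.14 CPM in FSH livers 1, 2, 3, 4 and 6, and from 0.581 to 1.02 CPM in saline livers with a median of 0.674. The groups did not overlap, and saline 2 was the saline liver closest to the FSH livers. The log2 fold change was +0.75 (SE 0.16, interval 0.41 to 1.09, limma adjusted p = 0.0081), and the exact permutation p of 0.00216 is the smallest this design allows. These levels rest on 13 to 39 reads in FSH livers and 7 to 14 in saline livers.

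Of the 10 members, 4 (Fos, Jun, Junb and Egr1) were past both thresholds used by the study (adjusted p below 0.05, and a change of over 1 on the log2 scale), and all 4 were lower with FSH. Over all genes tested, 0.942% were called lower and 0.887% higher by these thresholds. At the adjusted p alone, 5 members were lower and 1 higher, against 4.41% and 6.19% of all genes. Ranges did not meet for 3 members on the lower side and 1 on the higher side, against 2.72% and 3.95% of all genes. The median log2 fold change of the members was −1.22, and that of all genes 0.02. The count depends on the method and on saline 6. With edgeR's quasi-likelihood test on the recovered reads 9 members were past both thresholds, all but Jund, with Ier3 higher and the others lower, where edgeR called 1.22% of all genes lower and 1.23% higher. With voom 4 members were past both thresholds, but not the same 4: Fos dropped out and Ier3 entered, higher (1.06, adjusted p = 0.007). Of all genes, voom called 1.17% lower and 1.26% higher. With limma's array weights there were 5, Ier2 being added (−1.02, adjusted p = 0.0427), where 1.04% of all genes were called lower and 1.05% higher. Without saline 6, 7 members were called by limma, 9 reached the adjusted p and 7 did not overlap (6 lower and 1 higher). In that setting 0.99% of all genes were called lower and 0.942% higher, 9.25% reached the adjusted p, and the ranges did not meet for 3.06% on the lower and 4.82% on the higher side. Fosb, which met the filter only through the saline livers, is among the 9 called by edgeR and the 7 called without saline 6. In whole liver, fewer cells of a type and less RNA per cell cannot be told apart.

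**Figure D2:**
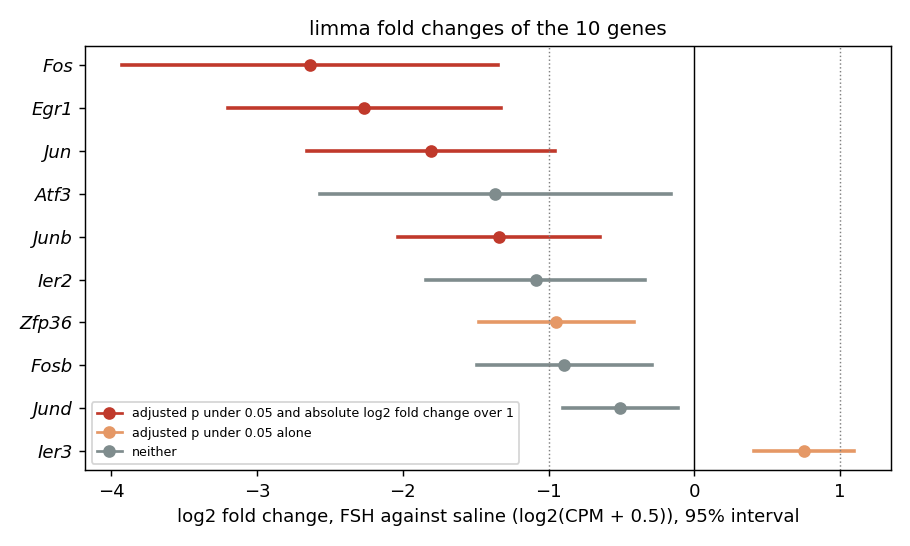
limma log2 fold change of each gene (FSH against saline, log2(CPM + 0.5)) with its 95% interval, ordered by size, with colours for the thresholds passed. Fos (−2.63), Egr1 (−2.26), Jun (−1.80) and Junb (−1.34) are past both thresholds, while the interval of Atf3 runs from −2.57 to −0.16.

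For most members the saline livers had a wider spread than the FSH livers. The highest saline liver was 24.0 times the lowest for Fos, 19.0 times for Atf3, 6.10 times for Egr1 and 2.23 times for Jund, while the corresponding ratios in FSH livers were 1.93, 1.67, 2.45 and 1.51. On this measure Fosb was the exception (5.91 in saline and 6.28 in FSH livers), and Ier3 was nearly level (1.75 and 1.72). The median SD of log2 level over the 10 members was 0.917 in saline livers and 0.254 in FSH livers, against 0.221 and 0.200 over all tested genes. A larger SD in saline livers was found for 9 of the 10 members (Ier3 was the exception) and for 58.1% of all genes tested. The SD of Fos in saline livers exceeded that of 99.9% of all genes, and that of Jund 91.4%. These values are a description of 6 livers. With Ier3 set aside, saline 3 and saline 4 were among the 3 highest saline livers for 9 of 9 genes, and saline 5 for 8. Saline 6 was the lowest for 8 of 9, and within or under the FSH range for 6 of 9, all but Fos, Junb and Egr1.

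**Figure D3:**
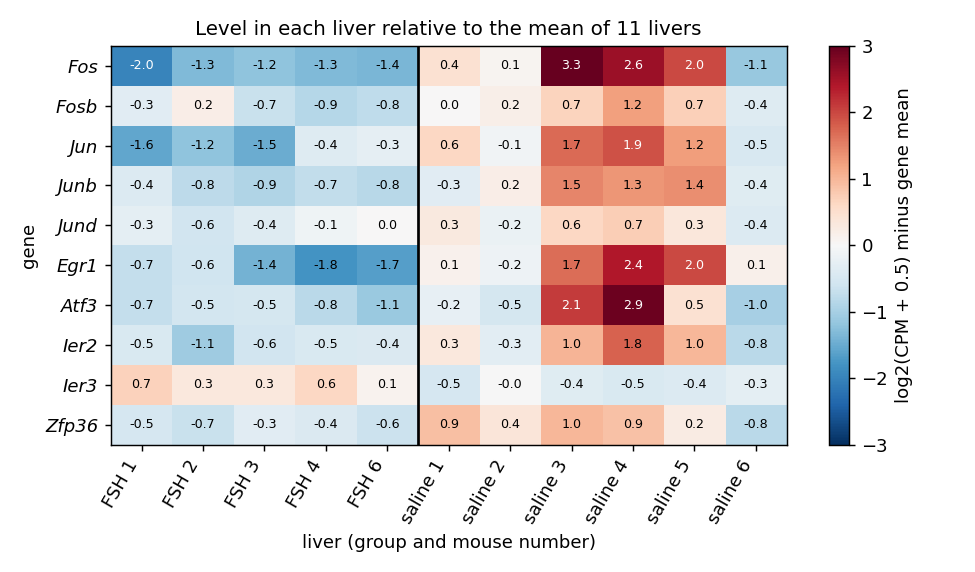
log2(CPM + 0.5) of each gene in each liver minus the mean of that gene over the 11 livers, with FSH livers left of the line and saline livers right of it. Saline 3 and 4 are among the 3 highest saline livers for all 9 genes other than Ier3 and saline 5 for 8 (not Zfp36), saline 6 lies within or under the FSH range for 6 of the 9, and Ier3 is higher in FSH livers.

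Only some members ordered the saline livers alike. Jun, Jund, Atf3 and Ier2 ranked the 6 saline livers in the same order, from saline 6 through saline 2, 1, 5 and 3 to saline 4. Among the 45 pairs tested, those 6 pairs had a Spearman rho of 1.00 (exact permutation p = 0.00278, adjusted p = 0.0208). By Pearson's r, 4 pairs had an adjusted p under 0.05: Jun with Ier2 (r = 0.98, exact permutation adjusted p = 0.0208), Jun with Jund (0.98, 0.0208), Jund with Ier2 (0.97, 0.0208) and Fos with Jun (0.97, 0.0469). Fos with Jun had a rho of 0.94, with an adjusted p of 0.075 (exact permutation). Left without the 2 livers farthest from the median of the gene named first, r was 0.92, 0.92, 0.85 and 0.97 in the same order. Zfp36 did not follow the order, with r of 0.75 with Fos, 0.75 with Jun, 0.73 with Ier2 and 0.65 with Fosb (exact permutation adjusted p from 0.087 to 0.216), which became 0.13, 0.18, 0.25 and −0.18 without 2 livers. Its r was higher with Jund, at 0.84 (exact permutation adjusted p = 0.0694), and was 0.68 with Atf3 (adjusted p = 0.174). Those became 0.53 and 0.56 without 2 livers. Junb and Egr1 fell into separate sets of 3 livers each, saline 3, 4 and 5 above and saline 1, 2 and 6 below, so no correlation is given for their 17 pairs. Over the other 28 pairs the median r was 0.88, beside 0.03 over all pairs of tested genes. The 7 of these pairs that hold Ier3 had r from −0.63 to −0.34, and none of them passed (exact permutation p from 0.164 to 0.536). Without 2 livers r was above 0 for Ier3 with Jun (0.53) and with Jund (0.31). The 5 FSH livers are too few for a correlation.

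**Figure D4:**
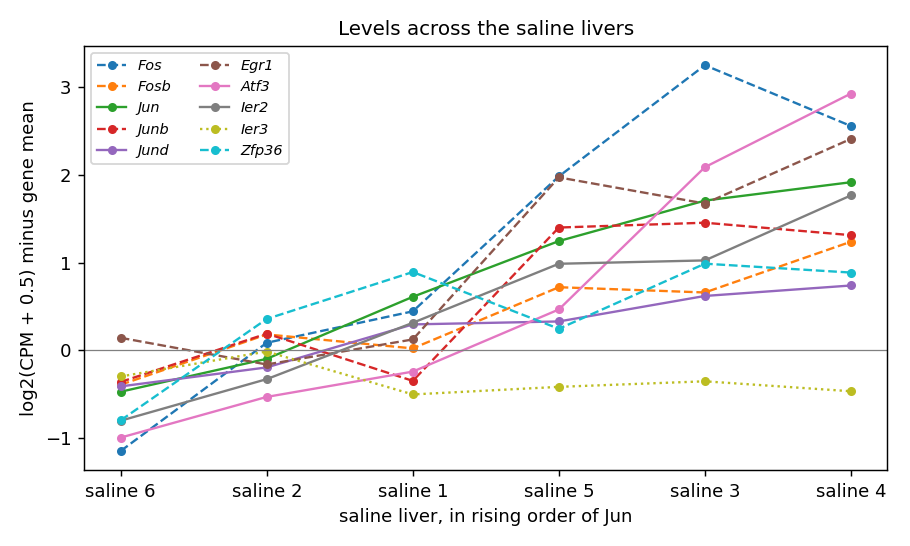
Level of each gene in the 6 saline livers, as log2(CPM + 0.5) minus the mean of the gene over the 11 livers, with the livers in rising order of Jun. Solid lines are Jun, Jund, Atf3 and Ier2, which share 1 order of livers, dashed lines the other members and the dotted line Ier3, which stays between −0.50 and −0.01.

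The mean of the members' levels relative to the gene means, here called the member score, was 1.53 in saline 4, 1.31 in saline 3, 0.89 in saline 5, 0.16 in saline 1, −0.05 in saline 2 and −0.55 in saline 6. In FSH livers it lay between −0.72 and −0.62. Among 10664 genes averaging 2 CPM or more, the highest r with this score over the 6 saline livers was that of Nr4a1, an immediate early orphan nuclear receptor (r = 0.99). After it came Dlgap4 and Whamm (both 0.97), Coq6, Hscb, Vps16 and Mrpl20 (all 0.96) and Hba-a2 (0.95). In all 58 genes (0.544%) had an r over 0.9, fewer than the 123 with an r under −0.9, so the names are a description of these 6 livers and no more. Nr4a1 stood at 3.07, 2.91, 16.4, 26.3, 8.24 and 1.62 CPM in saline livers 1 to 6, and its log2 fold change of −1.11 did not pass the test (limma adjusted p = 0.246).

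Other measures were set beside the member score in the 6 saline livers, and none of 8 relations passed after adjustment, with 1 at an unadjusted exact permutation p under 0.05. The endothelial marker score had r = −0.92 (exact permutation p = 0.0181, adjusted p = 0.144), rho = −0.83 (exact permutation p = 0.0583, adjusted p = 0.467) and r = −0.75 without 2 livers. Total reads had r = −0.67 and rho = −0.60 (exact permutation adjusted p = 0.544 and 0.793). Heat shock, glucocorticoid-induced, clock output, Kupffer cell, neutrophil and stellate cell scores had r between −0.36 and 0.54, with adjusted p of 0.767 or more (exact permutation). At 6 livers these relations were not resolved in either direction.

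The partner and upstream genes of AP-1 and EGR1 are given by counts, to be read against the 4.41% of all genes that were lower and 6.19% higher at the adjusted p, and no count in this paragraph is a result about its list. None of 10 other AP-1 partners tested passed the adjusted p in limma, in edgeR or in voom (0 also at an unadjusted p under 0.05), and the median log2 fold change was −0.12 (Maff, a small MAF protein, −0.46 with an SE of 0.25 and limma adjusted p = 0.286, and Mafg −0.20). Neither EGR co-repressor tested passed in limma or edgeR (Nab1 0.27, with an unadjusted limma p of 0.0431, and Nab2 −0.10). Among 6 genes of SRF and its cofactors, Mrtfb, a coactivator of SRF, was lower (log2 fold change −0.53, limma adjusted p = 0.00709) and Elk4, a ternary complex factor, higher (0.30, adjusted p = 0.0378), the latter in limma but not in edgeR or voom. None of 6 CREB family genes passed in limma or edgeR, with 0 at an unadjusted p under 0.05 (Crem −0.20, Creb1 −0.20). Of 15 MAP kinase genes, 1 passed: Map2k3, which activates p38, was higher (0.50, limma adjusted p = 0.0015). Among 6 AU-rich element binding genes, Hnrnpd was higher (0.60, limma adjusted p = 0.00175) and Zfp36l2, a paralogue of Zfp36, lower (−0.50, adjusted p = 0.0186).

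Among the negative feedback genes and other early response genes, 3 were past both thresholds (Dusp8, Gdf15 and Btg2), all lower with FSH, where 0.942% of all genes were called lower and 0.887% higher. Of 13 feedback genes tested, Dusp8, a phosphatase that inactivates MAP kinases, was past both (log2 fold change −1.18, limma adjusted p = 0.00394) at 0.221 to 0.526 CPM in FSH livers and 0.648 to 2.25 CPM in saline livers. Its FSH mean of 0.308 CPM was under the filter, so Dusp8, like Fosb, was tested only because of its level in saline livers, and its call is no support for the list. Dusp16 passed the adjusted p alone (−0.50, limma adjusted p = 0.0271). Of 36 other early response genes tested, 4 passed the adjusted p, all lower, and 2 were past both thresholds, where 4.41% of all genes were lower and 6.19% higher at that p. With both directions of all genes counted, 4 of 36 is near the background. Btg1 (−0.95, limma adjusted p = 1.82e-05) and Rhob (−0.54, adjusted p = 0.0129) passed the adjusted p alone, and their groups did not overlap. Gdf15, a stress-induced cytokine, was at 20.1, 8.26, 20.5, 39.4 and 28.3 CPM in FSH livers and 102, 29.5, 201, 294, 158 and 43.4 CPM in saline livers 1 to 6 (−2.29, limma adjusted p = 0.0122). Its highest saline livers were saline 4, 3 and 5, as for most members. Btg2, an antiproliferative early gene, was from 12.9 to 19.7 CPM in FSH livers and from 13.8 to 115 CPM in saline livers (−1.44, limma adjusted p = 0.0267). The medians of these lists were −0.29 and −0.28, beside 0.02 for all genes.

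**Figure D5:**
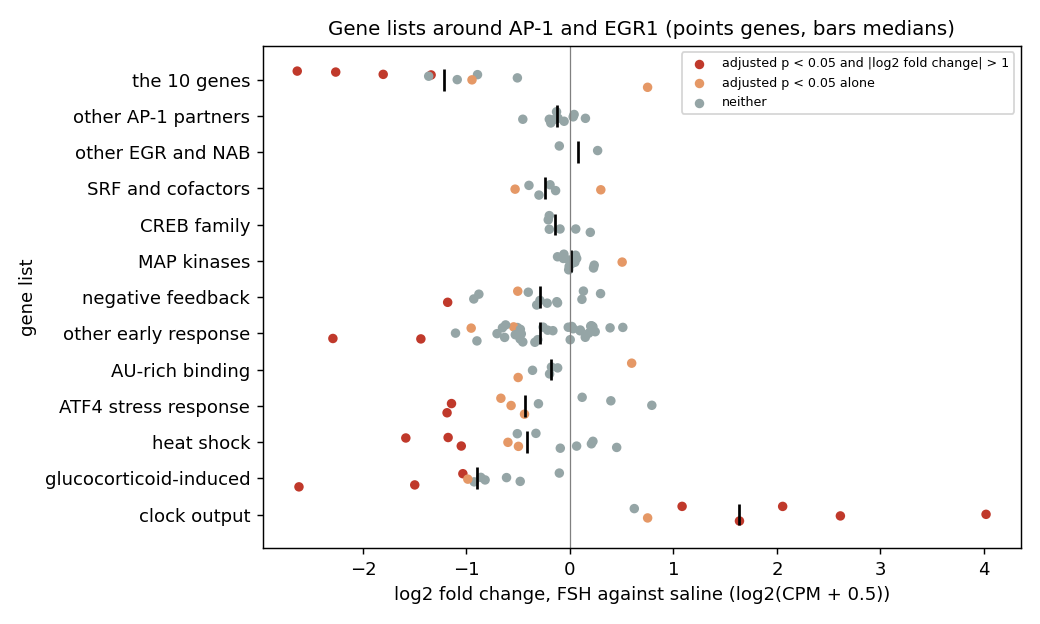
log2 fold change (FSH against saline, log2(CPM + 0.5)) of every tested gene in the 10 members and 12 lists around them, with points coloured by the thresholds passed and a bar at each median. The 10 members have a median of −1.22, other AP-1 partners −0.12 and clock output genes 1.64.

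Genes that respond to stress, hormones or time of day are given beside the members, by counts to be read against the 4.41% lower and 6.19% higher of all genes at the adjusted p. Of 9 ATF4 stress response genes, 5 passed the adjusted p, all lower, with Trib3 (log2 fold change −1.19, limma adjusted p = 0.00243) and Chac1 (−1.14, adjusted p = 0.00543) past both thresholds and Ppp1r15a (−0.67), Ddit3 (−0.57) and Atf5 (−0.44) past the p alone, while 3 of the 9 had a positive fold change. Of 12 heat shock genes, 5 passed, all lower, with Hspb1 (−1.59), Hsph1 (−1.18) and Hsp90aa1 (−1.05) past both and Hsp90ab1 (−0.60) and Hspa8 (−0.50) past the p alone, while 4 of the 12 had a positive fold change. All 10 glucocorticoid-induced genes had a negative fold change and 4 passed, with Zbtb16 (−2.62), Igfbp1 (−1.50) and Klf9 (−1.03) past both thresholds and Angptl4 (−0.99) past the p alone. Of 7 clock output genes 6 were higher and 5 past both thresholds, led by Dbp, a circadian transcription factor, at 42.6 to 121 CPM in FSH livers and 3.40 to 4.95 CPM in saline livers (4.02), followed by Per3 (2.61), Nr1d2 (2.06), Nr1d1 (1.64) and Tef (1.08). The groups did not overlap in these 5 genes, and Per2 (0.75) passed the p alone. Their part in the result for the members was not tested.

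Markers of other cell types, which whole liver also holds, were read beside the members, and counts at the adjusted p stand against 4.41% of all genes lower and 6.19% higher. All 8 Kupffer cell markers had a negative fold change, with a median of −0.56, 1 of them (Cd68, −0.78, limma adjusted p = 0.0118) past the adjusted p (2 in voom), and sums of 111 to 292 CPM in FSH livers and 193 to 346 CPM in saline livers. At an unadjusted limma p under 0.05 there were 5 of the 8, beside 3196 of all 12733 genes. Neutrophil markers, of which 2 of 6 were tested and 1 was at 0 in all livers, summed to 1.14 to 2.91 and 0.913 to 3.52 CPM. Of 6 endothelial markers, Lyve1 was lower (−0.63, limma adjusted p = 0.0121), with sums of 131 to 196 and 151 to 177 CPM. None of 7 stellate cell markers passed the adjusted p in limma or edgeR, with sums of 205 to 288 and 237 to 326 CPM. Of 7 hepatocyte markers, 4 had a negative and 3 a positive fold change, with a median of −0.10, and Hnf4a passed (−0.44, limma adjusted p = 0.0369). Of 5 cholangiocyte markers, 4 had a positive fold change, of which Krt7 passed (0.69, limma adjusted p = 0.00731), and 1 a negative one (Sox9, −0.50, adjusted p = 0.0545), with sums of 47.6 to 69.4 and 38.3 to 55.7 CPM. No lymphocyte marker (4 of 5 tested, sums of 2.88 to 7.30 and 3.57 to 8.70 CPM), erythroid marker (4 tested, 335 to 579 and 297 to 748 CPM) or acinar marker (1 of 5 tested, 10.5 to 15.2 and 7.86 to 13.7 CPM) passed in limma or edgeR, and 0 had an unadjusted p under 0.05 among these and the stellate cell and neutrophil markers tested, and no adipocyte marker of 4 reached the filter. The part of these cells in the members' differences was not tested.

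Depth and loci set the precision of these values. Libraries held between 10801891 and 19909327 recovered reads, with 1 read worth 0.0502 to 0.0926 CPM. On GRCm38 with GENCODE M21 the members lie at chromosome 12, 85473890 to 85477273 (Fos, plus strand), chromosome 7, 19302696 to 19310051 (Fosb, minus) and 28376784 to 28380253 (Zfp36, minus), chromosome 4, 95049034 to 95052222 (Jun, minus), and chromosome 8, 84974484 to 84978718 (Junb, minus), 70698949 to 70700616 (Jund, plus) and 84661331 to 84662852 (Ier2, minus). Egr1 lies on chromosome 18, 34859823 to 34864984 (plus), Atf3 on chromosome 1, 191170296 to 191218039 (minus), and Ier3 on chromosome 17, 35821684 to 35822923 (plus). All are annotated as protein-coding, and the features over which reads were counted are not given in the sources used here.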

How the data were processed

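RNA was taken from whole liver, and libraries from RNA of high integrity were sequenced as paired ends (per the study's methods). The deposited table holds CPM, reads of a gene per 1000000 counted, which the authors made from their reads; the submitters' notes name FastQC, cutadapt, Trim Galore, STAR, RSEM and mm10, with no roles, and strand use is not given in the sources used here. Every value was a whole multiple of the worth of 1 read (100% of values, within 0.1 read), so reads were recovered; 1233 of 36788 rows had no gene name.

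Groups came from the labels. limma 3.58.1 (R 4.3.3) was run on log2(CPM + 0.5) over the 12733 genes averaging 0.5 CPM or more, using an intensity trend, and p-values were adjusted over all of them by the Benjamini-Hochberg method. Single genes were checked by an exact permutation test, and pairs of genes by exact permutation over 720 orders of 6 livers. edgeR 4.0.16 and voom on recovered reads, other pseudocounts, filters and scalings, weights, a replicate block and leaving out each library were alternatives. On simulated 4-fold changes limma found 99% of 197 changed genes, with 0% false calls, and edgeR 100% of 200, with 0.99% false calls. The simulation gave every gene the same dispersion, 0.0307, in both groups. The members varied more in saline livers (median SD of log2 level 0.917), so these shares do not measure detection for them.

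The members and lists were chosen with earlier results of these data known. From each other list the genes past both thresholds were named or, where there were none, up to 2 with the smallest p, with further genes of a list given where they passed the adjusted p. The labels do not say more about the replicates than that they are separate samples, so p-values measure the spread between these samples. No 2 libraries of a group agreed within sampling noise, so none was counted as a duplicate, which does not bear on their independence.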

Additional observations from a re-analysis of the deposited data

Results flagged for a closer look

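In the FSH group, 2 values lay apart from the other livers. Fos in FSH 1 was 1.76 CPM, with the next lowest FSH liver at 2.98 CPM, a gap of 0.745 of the group's range. Ier2 in FSH 2 was 23.0 CPM, with the next lowest at 32.6 CPM, a gap of 0.750 of the range. Of the 20 groups of values checked (10 genes in 2 treatments), these 2 exceeded Dixon's critical value, and chance exceeds it in about 1 of 20. Without FSH 1 the log2 fold change of Fos was −2.50 (limma adjusted p = 0.0373), and without FSH 2 that of Ier2 was −0.97 (adjusted p = 0.131). The cause was not tested.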

How the results depend on the processing

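The fold change of each member kept its direction under every alternative that tested it (Fosb was not tested with the filter at 1 CPM, where 9 members were left). The count of members past both thresholds was 4 in limma and 9 with edgeR's quasi-likelihood test on recovered reads, 5 with array weights, 4 with voom (Ier3 in place of Fos), and from 4 to 7 when each library was left out, with 7 only without saline 6. Members at an adjusted p under 0.05 numbered 6, and 5 to 9 over all alternatives. Members whose groups did not overlap numbered 4, and from 4 to 7 with each library left out (7 without saline 6). There were 3 under TMM or median-ratio scaling, where Junb overlapped. With TMM scaling the ranges did not meet for 3.31% of all genes on the lower and 3.74% on the higher side. With median-ratio scaling these shares were 3.29% and 3.73%. All of these alternatives for overlap were chosen after seeing the data. Fos had an adjusted p of 0.0639 with voom, and that of Zfp36 was over 0.05 in 6 alternatives. Counts over all genes were 233 in limma and 189 to 311 elsewhere. The cause of these differences was not tested.

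Replicate numbers were shared between the groups. The deviations of same-numbered livers correlated at 0.07, 0.36, 0.02, 0.14 and −0.07 for numbers 1, 2, 3, 4 and 6, and 1 of 5 FSH livers correlated best with its own number. These values show no clear pairing, but they cannot exclude one in the design, and the labels do not say whether the numbers pair the livers. With the replicate block, 4 members and 251 genes in all were past both thresholds. The planned relation with the share of mitochondrial reads was not run, because no row had a symbol starting with mt-. Fosb and Ier3 rest on few reads, and small differences in them were not detectable at this depth. The FSH group holds 5 livers and the saline group 6, so the smallest two-sided exact permutation p was 0.00216. Counts of reads give counting error only.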
